A study of Homo sapiens with 12 samples.

Results

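The comparison described here set A549 cells carrying a hairpin RNA against TRIM22 (shTRIM22) and irradiated against A549 cells carrying a control hairpin (shControl) and irradiated, both harvested on day 3 after ionizing radiation. Its members were chosen by label and hold 6 of the 12 libraries of the series, 3 per group. A549 is an established human lung adenocarcinoma line, and both hairpins had been stably introduced, with the genotype labelled TRIM22 knockdown in the first population and WT in the second. The remaining 6 libraries, 3 of sham-irradiated shTRIM22 cells and 3 of sham-irradiated shControl cells, were used only where stated. Irradiation is common to both groups compared, so the contrast shows how the populations differed after exposure and not what exposure did. The labels name 1 hairpin population per arm and give no radiation dose, and beyond calling the replicates biological they do not describe separate cultures, so each p-value rests on library-to-library spread alone. What follows from lower TRIM22 cannot be told apart from other ways in which the hairpin populations may differ.

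TRIM22 belongs to the tripartite motif proteins, is an E3 ubiquitin ligase that interferon induces, is best known for restricting viruses, and its gene is a target of the tumour suppressor p53. Ionizing radiation breaks DNA and activates p53, which raises the cell cycle inhibitor CDKN1A. Cells that survive can stay arrested for days and release inflammatory mediators through NF-kB. Genes of these programmes, of lung and liver-type secretion that A549 cells carry, and of stress metabolism were therefore described group by group.

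Total counts in the 6 libraries lay between 14468386 and 17783397. Mitochondrially encoded genes took 13.7% to 14.4% of counts in irradiated shTRIM22 libraries and 12.8% to 13.6% in irradiated shControl libraries. The common biological coefficient of variation was 4.88%. Among the sham libraries, shTRIM22 sham replicate 3 stood apart, with 2.67% mitochondrial counts against at least 9.12% elsewhere. Values that rest on it are given with it kept, and the main ones also without it. The A549 label was checked on 10 markers. Their summed level ran from 15049 to 15867 CPM (counts scaled to a common library size) in irradiated shTRIM22 libraries. In irradiated shControl libraries it ran from 17081 to 17829 CPM. Of the 10, 4 rose and 5 fell in shTRIM22 cells, 1 and 3 of them at least 1.5-fold. The falls included CDH1 and AKR1B10, given below, AKR1C1 (log2 fold change -0.77) and ALDH1A1 (-0.47). KRT8, a keratin of simple epithelia, reached 4151, 4475 and 4196 CPM in shTRIM22 and 3846, 3886 and 3619.6 CPM in shControl libraries. KRT19 and EPCAM, also epithelial markers, averaged only 1.12 and 4.44 CPM in irradiated shTRIM22 libraries and 0.439 and 3.62 CPM in irradiated shControl libraries.

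Marker genes of other cell types were low. Of 8 blood cell markers 1 passed the filter on low counts and 3 were at 0 in all 6 libraries, and the summed level stayed between 1.81 and 2.73 CPM in irradiated shTRIM22 libraries and between 3.49 and 4.81 CPM in irradiated shControl libraries. The 7 fibroblast markers summed to 12.0 to 14.3 CPM in irradiated shTRIM22 libraries, against 8.63 to 9.48 CPM in irradiated shControl libraries. Of these, the collagen gene COL3A1 and the matrix proteoglycan gene LUM rose, with log2 fold changes of 2.34 ± 0.40 and 1.92 ± 0.35, at means of 2.22 and 3.23 CPM in irradiated shTRIM22 cells. The 6 endothelial markers summed to 9.46 to 12.3 CPM in irradiated shTRIM22 libraries and 4.67 to 5.45 CPM in irradiated shControl libraries, and CDH5, an endothelial cadherin, rose (log2 fold change 3.18 ± 0.54, adjusted p = 0.000539) to 3.31, 5.96 and 4.25 CPM in shTRIM22 libraries, against 0, 0.391 and 1.01 CPM in shControl libraries. At these low levels 1 library moved the size, to 4.42 for CDH5 without shControl irradiated replicate 3 and to 2.51 for LUM without shControl irradiated replicate 1, and the lowest values over the 13 alternative settings were 2.65 for CDH5 and 1.496 for LUM. Of 7 markers of kidney, cervix and liver lines, 5 were tested and 3 fell (SOX2, PAX2 and WT1, the calls of PAX2 and WT1 being lost in 3 and 2 of 13 alternative settings), with summed levels of 13.7 to 18.2 CPM in irradiated shTRIM22 libraries and 17.6 to 20.6 CPM in irradiated shControl libraries. The part of such markers in the results was not tested.

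TRIM22 itself (chromosome 11, 5689689 to 5737089, plus strand, on GRCh38) held 2.47, 2.17 and 1.35 CPM in irradiated shTRIM22 libraries, against 18.5, 17.8 and 16.6 CPM in irradiated shControl libraries. All shTRIM22 libraries lay far below all shControl libraries, and the fitted level was 11.4% of that of shControl cells (log2 fold change -3.14 ± 0.16, adjusted p = 1.83e-23, edgeR's quasi-likelihood test with Benjamini-Hochberg adjustment). The targeted gene thus went with its label in all 6 libraries. TRIM22 shares its locus with other tripartite motif genes. TRIM5, a retroviral restriction factor whose gene span covers that of TRIM22, held 30.3, 26.1 and 25.1 CPM in shTRIM22 and 29.5, 29.7 and 26.7 CPM in shControl libraries, which overlapped (log2 fold change -0.08 ± 0.08, adjusted p = 0.483). Of 6 TRIM genes other than TRIM22 that were tested, 0 rose and 2 fell, TRIM66 (-0.68 ± 0.08) and TRIM3 (-0.43 ± 0.09). The distance of these genes from TRIM22 was not examined. Reads of TRIM66 cannot be told apart from those of the opposite-strand gene RPL27A.

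Differences between the irradiated populations were widespread. Of 16084 genes tested, 7967 (49.5%) were called at an adjusted p below 0.05, 3994 higher (24.8%) and 3973 lower (24.7%) in shTRIM22 cells. At least 1.5-fold changes were fewer, 2889 genes (18.0%), of which 1236 rose (7.68%) and 1653 fell (10.3%), and 1201 genes (7.47%) changed at least 2-fold, 526 up (3.27%) and 675 down (4.20%). The groups did not overlap for 8957 genes (55.7%). The median log2 fold change over all genes was 0.00 when rounded. Scaling of the libraries by TMM places the centre of the fold changes near 0. This median therefore follows from the scaling, and changes are relative to that centre. With such a background, a share of called members near 49.5% says nothing about a gene group, and the counts below are read against these percentages.

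The largest falls included those of MUC5AC, SPDEF and FCGBP, which are known from mucus-producing epithelium. MUC5AC (chromosome 11, 1157953 to 1201138, plus strand), a gel-forming airway mucin, held 52.2, 42.5 and 44.2 CPM in irradiated shTRIM22 libraries, against 408, 448 and 611 CPM in irradiated shControl libraries. SPDEF, the ETS factor that drives goblet cell differentiation, held 3.64, 4.40 and 4.12 CPM in shTRIM22 and 24.1, 25.3 and 24.6 CPM in shControl libraries. FCGBP, a mucus protein secreted by goblet cells, held 12.3, 9.82 and 12.4 CPM in shTRIM22 and 82.4, 83.8 and 94.8 CPM in shControl libraries. Every shTRIM22 library was below every shControl library for each of these genes, which the rule that chose the largest changes required. Their log2 fold changes were -3.40 ± 0.22 for MUC5AC (adjusted p = 0.000245), -2.60 ± 0.12 for SPDEF (adjusted p = 3.65e-25) and -2.93 ± 0.08 for FCGBP (adjusted p = 1.12e-34). MUC5AC varied most between shControl libraries, with replicate 3 the highest. The other genes among the 12 with the largest falls were TRIM22, PDZK1IP1 (-2.91), a small membrane protein, KCNJ6 (-2.70), an inward-rectifier potassium channel, and SLC23A1 (-2.67), a vitamin C transporter. They also included CACNA1D (-2.65), an L-type calcium channel subunit that overlaps CHDH on the opposite strand, CST1 (-2.61), a secreted cystatin, BAHCC1 (-2.56), PRICKLE2 (-2.53), a planar polarity protein, and ANXA13 (-2.38), an annexin.

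Under the same limits, including a mean of at least 5 CPM, the largest rises were led by REEP1, SLC6A12 and PAG1. REEP1 (chromosome 2, 86213993 to 86338083, minus strand), which shapes the endoplasmic reticulum, held 20.3, 16.4 and 18.6 CPM in irradiated shTRIM22 libraries, against 1.84, 1.43 and 1.54 CPM in irradiated shControl libraries. SLC6A12, a betaine and GABA transporter, held 30.6, 31.4 and 17.3 CPM in shTRIM22 and 2.19, 3.32 and 2.19 CPM in shControl libraries. PAG1, a membrane adaptor that recruits the kinase CSK to Src-family kinases, held 12.7, 13.4 and 14.7 CPM in shTRIM22 and 1.13, 1.37 and 2.07 CPM in shControl libraries. The groups were again fully separated by the rule of choice, although SLC6A12 was lower in shTRIM22 replicate 3 than in shTRIM22 replicates 1 and 2. REEP1 changed by 3.52 ± 0.17 (adjusted p = 1.89e-25), SLC6A12 by 3.36 ± 0.36 (adjusted p = 0.000946) and PAG1 by 3.13 ± 0.18 (adjusted p = 2.6e-21). CPA4, a secreted carboxypeptidase, reached 170.0, 164 and 183 CPM in shTRIM22 and 33.4, 33.7 and 21.3 CPM in shControl libraries (log2 fold change 2.56 ± 0.18, adjusted p = 0.000344). Further rises were those of OLR1 (2.50), a receptor for oxidized lipoprotein, ZNF114 (2.45), a zinc-finger gene, CRYBG2 (2.32), NTSR1 (2.32), a neurotensin receptor, MFAP5 (2.31), a microfibril protein, SH3TC2 (2.16), PCDH7 (2.13), a protocadherin, and UNC5B (2.06), a netrin receptor.

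**Figure D1:**
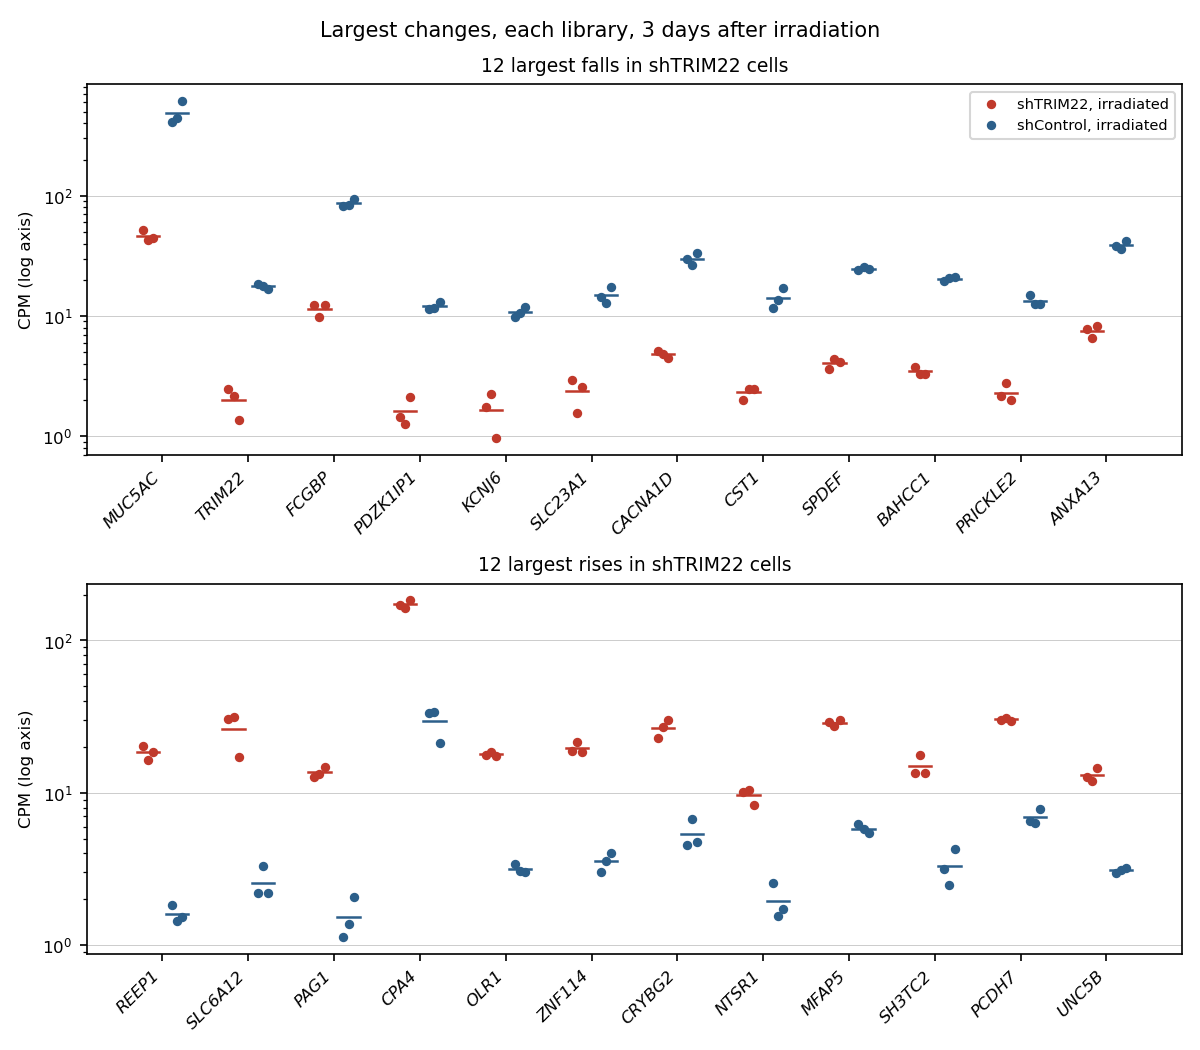
Level of each library in CPM on a log axis for the 12 genes with the largest fall and the 12 with the largest rise in irradiated shTRIM22 cells (red) against irradiated shControl cells (blue). Points are libraries and lines are group means over 3 libraries. For all 24 genes the 2 groups of points are apart, because lack of overlap was part of the rule that chose them. That rule also took only called protein-coding genes with a mean of at least 5 CPM.

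The secretory programmes of A549 cells were lower as well. Of 11 mucin and alveolar genes tested, 6 were lower and 1 higher, at a median log2 fold change of -0.40. In bulk RNA, fewer cells of a secretory type and less RNA per cell cannot be told apart. MUC5B, the other major airway mucin, held 2445, 2096 and 2360.0 CPM in irradiated shTRIM22 libraries, against 8568, 9459.5 and 10731 CPM in irradiated shControl libraries. The groups were well separated (log2 fold change -2.06 ± 0.11, adjusted p = 1.92e-05). MUC13 and MUC16, membrane mucins, changed by -0.40 ± 0.06 and -0.38 ± 0.07, and MUC16 lost its call with all 12 libraries in 1 fit (adjusted p = 0.372). The surfactant genes SFTPA1, SFTPB and SFTPC, the alveolar factor NKX2-1 and the club cell gene SCGB1A1 were too low to be tested, and SFTPD, another surfactant gene, averaged 2.82 CPM in shTRIM22 and 3.03 CPM in shControl libraries (log2 fold change -0.11 ± 0.23, adjusted p = 0.719).

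Of 17 acute-phase and complement genes tested, 12 fell and 4 rose, and 10 fell at least 1.5-fold, with a median of -0.73. FGB, the beta chain of fibrinogen, held 158, 156 and 161 CPM in irradiated shTRIM22 libraries, against 408, 400.0 and 457 CPM in irradiated shControl libraries. Complement C5 held 29.6, 30.2 and 33.8 CPM in shTRIM22 and 87.1, 85.3 and 74.2 CPM in shControl libraries. Neither gene overlapped between the groups. The changes were -1.42 ± 0.05 for FGB (adjusted p = 2.18e-32) and -1.40 ± 0.07 for C5 (adjusted p = 7.58e-24), and C1S, a complement protease, changed by -1.02 ± 0.05. Against this direction the acute-phase apolipoprotein SAA1 rose, at 12.3, 12.2 and 11.003 CPM in shTRIM22 and 7.01, 5.34 and 4.67 CPM in shControl libraries (log2 fold change 1.07 ± 0.15, adjusted p = 1.76e-08), although reads of SAA1 may be shared with its near-identical neighbour SAA2. Liver-type secreted proteins and their factors showed 10 falls and 2 rises among 17 tested, with a median of -0.43. FOXA2, a pioneer factor of endoderm, held 4.81, 4.76 and 4.76 CPM in shTRIM22 and 18.8, 17.97 and 19.9 CPM in shControl libraries (log2 fold change -1.98 ± 0.13, adjusted p = 1.6e-19), and the groups were far apart. APOH, a plasma apolipoprotein, held 0.455, 0.542 and 0.450 CPM in shTRIM22 and 7.78, 7.68 and 6.80 CPM in shControl libraries (log2 fold change -3.92 ± 0.27, adjusted p = 1.13e-18). CPS1, the entry enzyme of the urea cycle, fell (-0.43 ± 0.04), as did ITIH2, a hyaluronan-binding plasma protein (-1.28 ± 0.13).

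Epithelial adhesion genes did not move as a block. Of 16 epithelial genes tested, 6 rose and 4 fell, with a median of 0.04. CDH1 (chromosome 16, 68737225 to 68835548, plus strand), E-cadherin of adherens junctions, held 74.4, 73.6 and 70.5 CPM in irradiated shTRIM22 libraries, against 295, 291 and 276 CPM in irradiated shControl libraries. CLDN2, a pore-forming claudin of tight junctions, held 35.4, 33.3 and 34.2 CPM in shTRIM22 and 143, 140.1 and 165 CPM in shControl libraries. Both genes were lower in every shTRIM22 library, with log2 fold changes of -1.98 ± 0.05 for CDH1 (adjusted p = 1.19e-38) and -2.12 ± 0.06 for CLDN2 (adjusted p = 2.56e-34). In contrast KRT18, a simple keratin that overlaps KRT8 on the opposite strand, rose by 0.35 ± 0.04 and the desmosome gene DSP by 0.30 ± 0.04.

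Mesenchymal genes gave 6 rises and 5 falls of 23 tested, with a median of 0.00. COL4A1, a basement membrane collagen, held 46.6, 48.9 and 55.4 CPM in irradiated shTRIM22 libraries, against 181, 180.2 and 154 CPM in irradiated shControl libraries (log2 fold change -1.77 ± 0.07, adjusted p = 1.72e-15). COL5A1, a fibrillar collagen, and THBS1, the matrix glycoprotein thrombospondin, changed by -0.97 ± 0.07 and -0.89 ± 0.07. VIM, the intermediate filament vimentin, held 279.5, 279.9 and 273 CPM in shTRIM22 and 237, 220.3 and 229.6 CPM in shControl libraries and rose slightly (log2 fold change 0.28 ± 0.04, adjusted p = 1.82e-07), and LOXL2, a collagen cross-linking enzyme, rose by 0.73 ± 0.04. The groups did not overlap for any of these 5 genes. E-cadherin, COL4A1 and COL5A1 were thus lower beside a small rise of vimentin, while the collagen gene COL3A1, counted above with the fibroblast markers, rose.

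Extracellular proteases and their inhibitors split, with 7 of 15 higher and 5 lower. MMP7, the protease matrilysin, held 21.9, 22.2 and 23.5 CPM in irradiated shTRIM22 libraries, against 82.2, 77.8 and 89.99 CPM in irradiated shControl libraries (log2 fold change -1.89 ± 0.07, adjusted p = 1.01e-30). The metalloproteinase inhibitors TIMP1 and TIMP2 moved in opposite directions. TIMP1 held 86.5, 93.3 and 95.9 CPM in shTRIM22 and 150.1, 165 and 178 CPM in shControl libraries (log2 fold change -0.84 ± 0.05, adjusted p = 2.27e-18). TIMP2 held 422, 424 and 404 CPM in shTRIM22 and 203, 214 and 208 CPM in shControl libraries (log2 fold change 1.00 ± 0.04, adjusted p = 1.16e-27). SERPINE2, a protease inhibitor, fell (-0.56 ± 0.05). Of 21 integrin and laminin genes tested, 9 rose and 9 fell. The integrin subunits ITGB1 (-0.58 ± 0.04), ITGA2 (-0.68 ± 0.05) and ITGA6 (-0.85 ± 0.06) fell, while the laminin chain LAMC1 rose (0.50 ± 0.04).

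**Figure D2:**
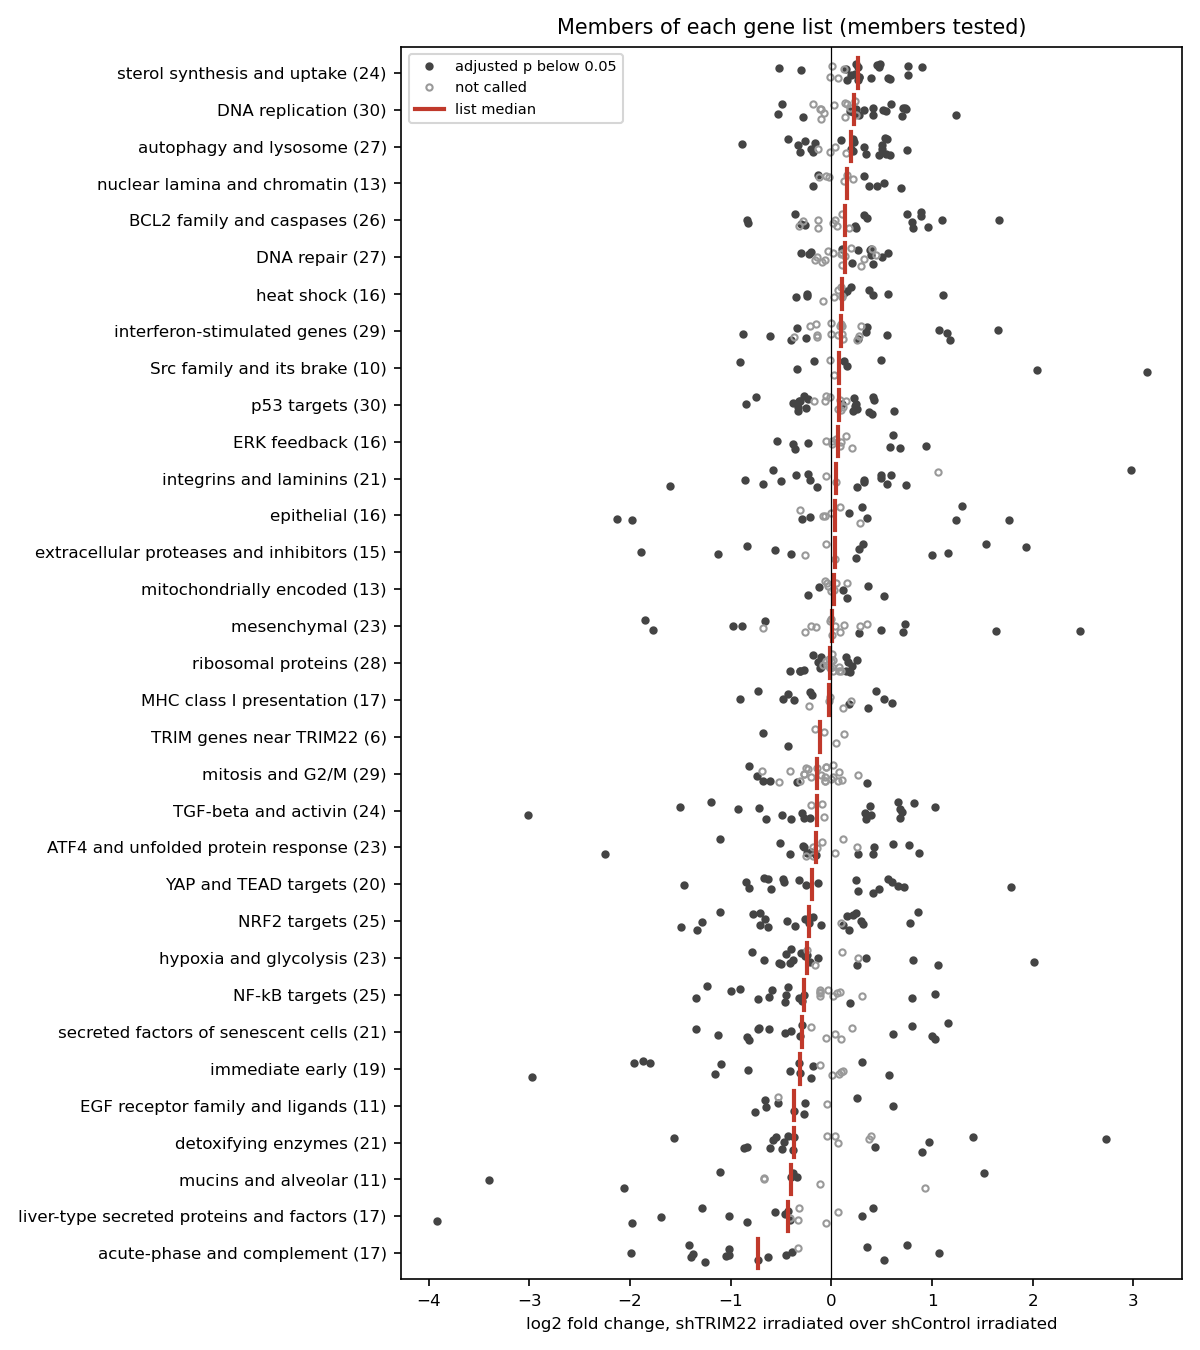
Log2 fold change of irradiated shTRIM22 over irradiated shControl cells for each tested member of the gene lists, with the number of members plotted in brackets. Filled points passed an adjusted p of 0.05, open points did not, red lines are list medians, the 5 lists of cell type and cell line markers are not drawn, and CA9, which was close to 0 in shTRIM22 libraries, is left out. Medians of the 33 lists drawn run from -0.73 for acute-phase and complement genes to 0.27 for sterol genes.

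Immediate early genes, which serum and growth factor signals switch on within minutes, were lower in irradiated shTRIM22 cells. Of 19 tested, 12 fell and 2 rose, 7 of the falls being at least 1.5-fold, with a median of -0.31. FOS (chromosome 14, 75278774 to 75282230, plus strand), a subunit of the AP-1 transcription factor, held 196, 201 and 186 CPM in irradiated shTRIM22 libraries, against 733, 742 and 652 CPM in irradiated shControl libraries. JUN, its partner, held 79.3, 80.4 and 75.1 CPM in shTRIM22 and 179, 184 and 161 CPM in shControl libraries, and JUNB held 80.1, 85.96 and 73.7 CPM in shTRIM22 and 162, 181 and 168 CPM in shControl libraries. The shTRIM22 values were all below the shControl values, with log2 fold changes of -1.87 ± 0.05 for FOS (adjusted p = 1.51e-33), -1.16 ± 0.05 for JUN (adjusted p = 3.68e-26) and -1.09 ± 0.05 for JUNB (adjusted p = 1.07e-23). MCL1, a short-lived survival protein of the BCL2 family, held 215, 212 and 209 CPM in shTRIM22 and 373, 384 and 371 CPM in shControl libraries (log2 fold change -0.83 ± 0.04, adjusted p = 2.59e-24). EGR1, a zinc-finger factor, was picked after its values were seen and held 179, 178 and 144 CPM in shTRIM22 and 615, 675 and 657 CPM in shControl libraries (log2 fold change -1.96 ± 0.08, adjusted p = 1.39e-08), again without overlap.

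The EGR1 promoter is printed because it was the only immediate early promoter searched that held CArG boxes, the sites that serum response factor binds. It runs from 250 bases before to 50 bases after the start of the gene (RefSeq, GRCh38.p14), read 5′ to 3′, and its capitals mark the 2 CArG boxes that a search of both strands found.
EGR1 promoter, chr5:138465229-138465528, plus strand: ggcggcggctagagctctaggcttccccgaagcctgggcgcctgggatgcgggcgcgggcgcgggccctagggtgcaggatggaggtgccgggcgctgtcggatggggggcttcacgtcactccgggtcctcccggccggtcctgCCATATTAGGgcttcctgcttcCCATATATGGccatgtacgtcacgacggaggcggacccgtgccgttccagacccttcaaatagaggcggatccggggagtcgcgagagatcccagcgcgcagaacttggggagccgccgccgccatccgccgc
CArG boxes were present in 1.29% of 27305 such promoters. Of 14 immediate early genes with a promoter in the table, 1, EGR1, held one in this window.

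Growth factor receptor genes and the feedback genes of the ERK kinase pathway did not follow a single direction. Of 11 genes of the EGF receptor family and its ligands, 7 fell and 2 rose, with a median of -0.37. EGFR held 309, 302 and 283 CPM in irradiated shTRIM22 libraries, against 387, 385 and 383 CPM in irradiated shControl libraries (log2 fold change -0.37 ± 0.04, adjusted p = 6.01e-11), with no overlap. Its partner receptor ERBB3 (-0.66 ± 0.08), the ligand TGFA (-0.75 ± 0.10) and the feedback inhibitor ERRFI1 (-0.52 ± 0.04) fell as well. Among ERK feedback genes 4 rose and 4 fell of 16 tested. DUSP5, a phosphatase that inactivates nuclear ERK, held 382, 385 and 388 CPM in shTRIM22 and 204, 199 and 198 CPM in shControl libraries (log2 fold change 0.94 ± 0.04, adjusted p = 7.6e-27), and every shTRIM22 library was above the shControl libraries. CCND1, the cyclin that ERK signals induce, rose (0.68 ± 0.04), as did EPHA2 (0.58 ± 0.04), an ephrin receptor, and PHLDA1 (0.61 ± 0.05).

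Src-family kinases and their brake gave 5 rises and 3 falls of 10 tested. SRC held 156, 160.1 and 153 CPM in irradiated shTRIM22 libraries, against 281, 289.7 and 307 CPM in irradiated shControl libraries (log2 fold change -0.91 ± 0.04, adjusted p = 4.68e-25), so that the kinase was lower while PAG1, described above, was higher. FYN, a related kinase, rose (0.49 ± 0.14) and the phosphatase PTPN6 fell (-0.34 ± 0.09).

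NF-kB target genes were more often lower than higher. Of 25 tested, 13 fell and 3 rose, against 24.7% and 24.8% of all genes, with a median of -0.27. SOD2, the mitochondrial superoxide dismutase, held 393, 385 and 341 CPM in irradiated shTRIM22 libraries, against 890.2, 863 and 883 CPM in irradiated shControl libraries. TNFAIP2 held 852, 854 and 871 CPM in shTRIM22 and 1650.2, 1687 and 1783 CPM in shControl libraries. TNFAIP3, the A20 enzyme that ends NF-kB signalling, held 42.1, 42.7 and 45.1 CPM in shTRIM22 and 82.4, 81.1 and 79.3 CPM in shControl libraries. The chemokine CCL2, which draws monocytes, held 18.003, 20.4 and 22.6 CPM in shTRIM22 and 52.1, 53.1 and 49.1 CPM in shControl libraries. The groups were separate for all 4, with log2 fold changes of -1.24 ± 0.04 for SOD2 (adjusted p = 2.99e-29), -0.99 ± 0.04 for TNFAIP2 (adjusted p = 1.8e-28), -0.90 ± 0.06 for TNFAIP3 (adjusted p = 1.55e-19) and -1.34 ± 0.08 for CCL2 (adjusted p = 2.25e-21). CXCL8, the neutrophil chemokine interleukin-8, held 267, 223 and 212 CPM in shTRIM22 and 387, 381 and 398 CPM in shControl libraries (log2 fold change -0.73 ± 0.07, adjusted p = 7.83e-06).

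Inflammatory mediators with rises included IL6 and CCL20. IL6, an inflammatory cytokine, held 9.49, 7.65 and 9.39 CPM in irradiated shTRIM22 libraries, against 4.32, 3.97 and 4.67 CPM in irradiated shControl libraries (log2 fold change 1.03 ± 0.16, adjusted p = 3.67e-07). CCL20, a chemokine for dendritic cells and lymphocytes that was picked after its values were seen, held 35.03, 35.96 and 35.8 CPM in shTRIM22 and 24.6, 18.1 and 18.8 CPM in shControl libraries (log2 fold change 0.80 ± 0.09, adjusted p = 7.92e-11). Every shTRIM22 library exceeded every shControl library for both genes. Among secreted factors of senescent cells, a list that shares chemokine genes with the NF-kB list, 11 of 21 fell and 5 rose, with a median of -0.29. CXCL1, a neutrophil chemokine, held 173, 173 and 162 CPM in shTRIM22 and 253, 256 and 271 CPM in shControl libraries (log2 fold change -0.62 ± 0.04, adjusted p = 3.85e-18).

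**Figure D3:**
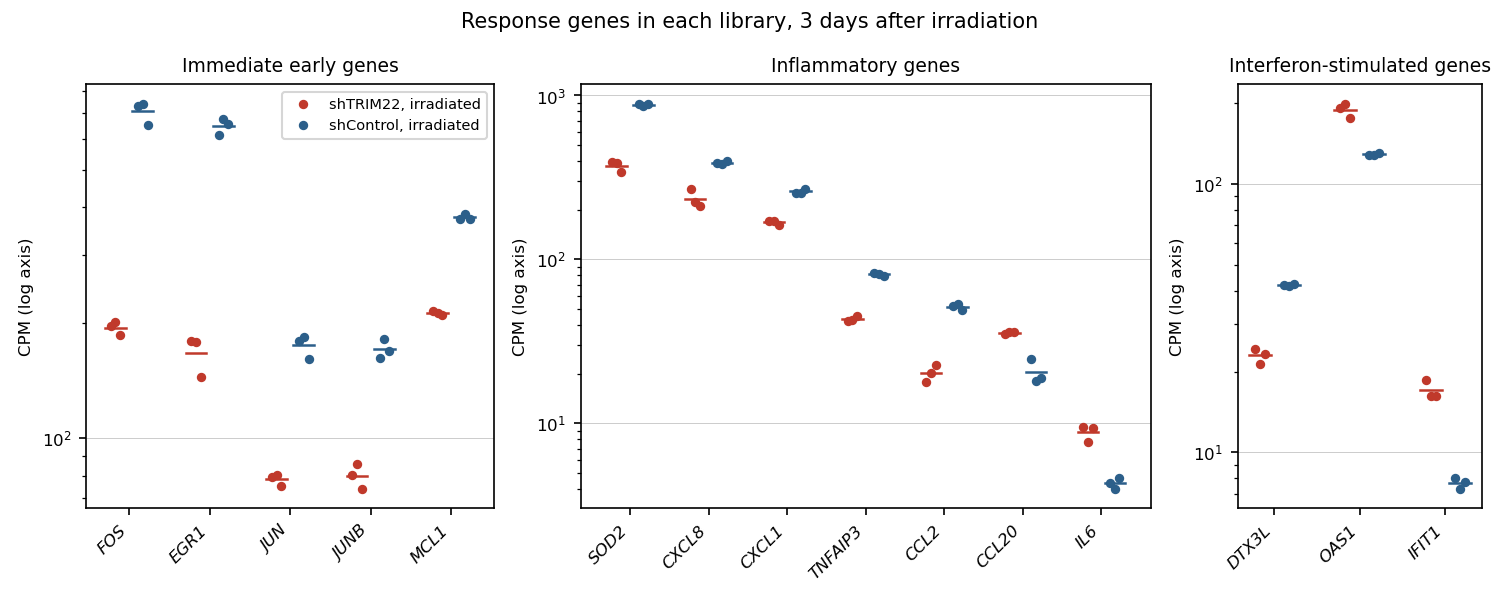
Level of each irradiated library in CPM on a log axis for immediate early, inflammatory and interferon-stimulated genes, shTRIM22 in red and shControl in blue, with lines at group means over 3 libraries. FOS, EGR1, JUN, JUNB, MCL1, SOD2, CXCL8, CXCL1, TNFAIP3, CCL2 and DTX3L are lower in shTRIM22 cells, and CCL20, IL6, OAS1 and IFIT1 are higher.

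Promoters of 4 NF-kB targets that moved in opposite directions are shown, so that the site they share can be compared. CXCL1 and TNFAIP3 were lower and CCL20 and IL6 higher in irradiated shTRIM22 cells. Capitals mark matches to the NF-kB site on either strand (RefSeq, GRCh38.p14, 250 bases before to 50 after the start, 5′ to 3′).
CXCL1 promoter, chr4:73869143-73869442, plus strand: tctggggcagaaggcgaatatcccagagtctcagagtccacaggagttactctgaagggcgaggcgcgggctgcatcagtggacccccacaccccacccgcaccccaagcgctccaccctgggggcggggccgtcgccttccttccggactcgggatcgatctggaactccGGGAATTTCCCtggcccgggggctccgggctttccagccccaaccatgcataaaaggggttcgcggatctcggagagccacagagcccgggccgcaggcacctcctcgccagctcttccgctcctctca
TNFAIP3 promoter, chr6:137867009-137867308, plus strand: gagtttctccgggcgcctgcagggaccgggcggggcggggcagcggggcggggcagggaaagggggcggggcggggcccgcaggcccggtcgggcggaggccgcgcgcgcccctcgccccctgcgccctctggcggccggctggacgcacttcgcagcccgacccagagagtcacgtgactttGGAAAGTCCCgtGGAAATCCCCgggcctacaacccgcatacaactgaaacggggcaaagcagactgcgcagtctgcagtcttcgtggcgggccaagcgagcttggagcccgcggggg
CCL20 promoter, chr2:227813592-227813891, plus strand: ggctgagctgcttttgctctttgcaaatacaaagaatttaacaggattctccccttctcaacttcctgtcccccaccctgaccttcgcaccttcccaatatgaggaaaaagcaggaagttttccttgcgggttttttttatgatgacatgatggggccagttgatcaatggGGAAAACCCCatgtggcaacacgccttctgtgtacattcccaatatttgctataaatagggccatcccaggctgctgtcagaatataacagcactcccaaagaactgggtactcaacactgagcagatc
IL6 promoter, chr7:22726950-22727249, plus strand: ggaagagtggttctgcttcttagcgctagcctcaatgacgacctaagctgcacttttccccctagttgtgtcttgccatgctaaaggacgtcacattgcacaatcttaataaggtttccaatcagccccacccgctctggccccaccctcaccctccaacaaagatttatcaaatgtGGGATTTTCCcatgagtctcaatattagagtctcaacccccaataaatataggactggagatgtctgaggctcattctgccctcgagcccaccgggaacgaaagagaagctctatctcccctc
An NF-kB site was found in 12 of the 20 NF-kB targets with a promoter in the table, against 5.72% of all 27305 promoters. Of the 12, 6 fell, 2 rose and 4 were not called, where 24.7% of all genes tested fell and 24.8% rose.

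Interferon-stimulated genes, counted without TRIM22 itself, were mixed. Of 29 tested, 8 rose and 5 fell, with a median of 0.09. IFIT1 (chromosome 10, 89392546 to 89406486, plus strand), which binds foreign RNA, held 18.6, 16.3 and 16.2 CPM in irradiated shTRIM22 libraries, against 7.996, 7.29 and 7.75 CPM in irradiated shControl libraries. OAS1, an RNA sensor that activates RNase L, held 192, 199 and 175 CPM in shTRIM22 and 128, 128 and 131 CPM in shControl libraries. The shTRIM22 libraries were above the shControl libraries for both, by 1.15 ± 0.12 for IFIT1 (adjusted p = 8.93e-12) and 0.55 ± 0.05 for OAS1 (adjusted p = 4.61e-15). DTX3L, an E3 ligase of interferon and DNA damage responses, held 24.3, 21.4 and 23.3 CPM in shTRIM22 and 42.2, 41.6 and 42.5 CPM in shControl libraries (log2 fold change -0.87 ± 0.08, adjusted p = 1.84e-14), although it overlaps its opposite-strand partner PARP9, whose reads cannot be told apart without strand. DTX3L thus went in the direction opposite to IFIT1 and OAS1. Genes of MHC class I presentation gave 5 rises and 7 falls of 17 tested. The peptide transporter TAP1 rose (0.36 ± 0.06), as did CALR, a chaperone of class I assembly (0.44 ± 0.04), while the immunoproteasome subunit PSMB8 (-0.48 ± 0.10) and TAPBPL (-0.90 ± 0.17), a peptide editor that overlaps VAMP1, fell. Reads of HLA genes may be split among near-identical alleles and loci.

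The promoters of DTX3L, which fell, and IFIT1, which rose, both held the interferon-response letters GAAANNGAAA (N for any base), searched on both strands and marked by capitals on whichever strand they lie (same source and window).
DTX3L promoter, chr3:122564088-122564387, plus strand: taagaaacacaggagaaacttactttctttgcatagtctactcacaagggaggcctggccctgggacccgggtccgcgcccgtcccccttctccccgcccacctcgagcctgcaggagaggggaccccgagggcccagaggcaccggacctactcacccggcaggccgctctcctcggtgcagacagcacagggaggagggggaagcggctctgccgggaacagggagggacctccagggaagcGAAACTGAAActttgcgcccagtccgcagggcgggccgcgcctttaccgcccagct
IFIT1 promoter, chr10:89392373-89392672, plus strand: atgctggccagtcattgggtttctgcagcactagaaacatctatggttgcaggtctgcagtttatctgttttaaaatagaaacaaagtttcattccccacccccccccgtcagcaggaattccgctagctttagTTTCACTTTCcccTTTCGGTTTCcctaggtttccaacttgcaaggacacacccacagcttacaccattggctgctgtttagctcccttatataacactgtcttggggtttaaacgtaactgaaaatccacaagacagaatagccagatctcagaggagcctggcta
The letters occurred in 18 of the 26 interferon-stimulated genes with a promoter in the table and in 3.65% of all 27305 promoters. Of these 18, 4 rose, 3 fell, 9 were not called and 2 were not tested, where 24.8% of all genes tested rose and 24.7% fell.

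The p53 targets, counted without TRIM22, were close to level between the irradiated populations. Of 30 tested, 11 rose and 10 fell, but 1 rose and 2 fell at least 1.5-fold, and the median was 0.08. CDKN1A (chromosome 6, 36676460 to 36687339, plus strand), the p21 inhibitor of cyclin-dependent kinases, held 635, 650.3 and 647 CPM in irradiated shTRIM22 libraries, against 578, 603 and 617 CPM in irradiated shControl libraries. The groups lay close together but apart (log2 fold change 0.10 ± 0.04, adjusted p = 0.0289), and this call was lost in 6 of 13 alternative settings. MDM2, the ligase that degrades p53, held 245, 225 and 244 CPM in shTRIM22 and 316, 317 and 296 CPM in shControl libraries (log2 fold change -0.38 ± 0.04, adjusted p = 8.78e-11). Damage recognition genes of nucleotide excision repair were lower, DDB2 at 58.9, 64.5 and 70.5 CPM in shTRIM22 and 102, 109 and 114 CPM in shControl libraries (log2 fold change -0.75 ± 0.06, adjusted p = 5.59e-16) and XPC, which overlaps LSM3, with a log2 fold change of -0.85 ± 0.07. PHLDA3, an inhibitor of AKT, rose (0.41 ± 0.04), and lost this call when all 12 libraries were fitted together (adjusted p = 0.0598).

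Without irradiation the same genes stood differently. In sham cells 25 of the 30 targets were higher and 1 lower in shTRIM22 cells, with a median of 0.86. Without shTRIM22 sham replicate 3, 26 were higher and 1 lower, with a median of 0.89. Of 17094 genes, 47.5% were called in either direction in sham cells, 25.4% higher and 22.1% lower. Without that library 49.7% of 17500 genes were called. CDKN1A held 355, 365 and 365 CPM in sham shTRIM22 libraries and 162, 164 and 160.1 CPM in sham shControl libraries. MDM2 held 163, 151 and 144 CPM in sham shTRIM22 libraries and 85.1, 85.9 and 85.5 CPM in sham shControl libraries. Both genes were thus higher in shTRIM22 than in shControl cells after sham irradiation. In irradiated shTRIM22 cells CDKN1A was near level and MDM2 lower. The difference between the knockdown effects, irradiated minus sham, was -1.05 ± 0.07 for CDKN1A (adjusted p = 1.22e-06) and -1.22 ± 0.09 for MDM2 (adjusted p = 1.22e-06). Without shTRIM22 sham replicate 3 these were -1.05 (adjusted p = 2.54e-17) and -1.26 (adjusted p = 3.8e-18). Of the 30 targets, 22 had a knockdown effect that was lower after irradiation and 0 a higher one, against 187 of 17094 genes lower (1.09%), and the count was 27 against 4.32% of 17500 genes without that library.

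**Figure D4:**
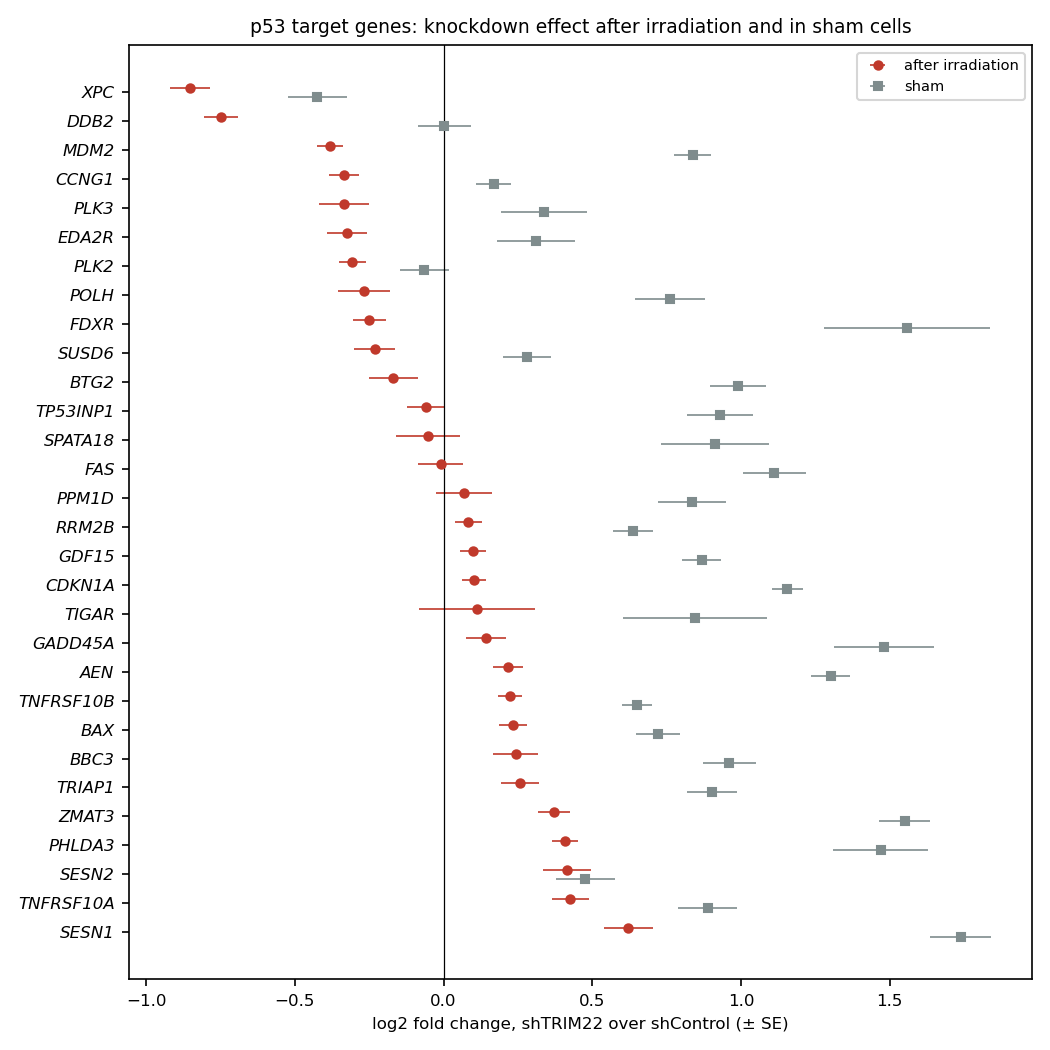
Knockdown effect on 30 p53 target genes as log2 fold change of shTRIM22 over shControl with its SE, after irradiation (red circles) and in sham cells (grey squares), from 3 libraries per group. After irradiation the effects lie between -0.85 and 0.62 with a median of 0.08, and in sham cells the median is 0.86.

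Genes of DNA replication were more often higher than lower. Of 30 tested, 15 rose and 3 fell, against 24.8% and 24.7% of all genes, with a median of 0.23, and 6 rose and 0 fell at least 1.5-fold, against 7.68% and 10.3% of all genes. MCM2, a subunit of the replicative helicase, held 25.2, 28.7 and 33.8 CPM in irradiated shTRIM22 libraries, against 19.6, 18.6 and 14.4 CPM in irradiated shControl libraries (log2 fold change 0.74 ± 0.11, adjusted p = 1.92e-06). GINS2, which joins that helicase, held 4.09, 5.60 and 5.66 CPM in shTRIM22 and 1.84, 2.15 and 2.48 CPM in shControl libraries (log2 fold change 1.24 ± 0.22, adjusted p = 4.37e-06). ORC6, of the origin recognition complex, rose by 0.71 ± 0.15. The groups did not overlap, although MCM2 overlaps TPRA1 and GINS2 overlaps GSE1 on the opposite strand. PCNA, the sliding clamp of replication forks and a p53 target as well, went the other way at 370.3, 372 and 333 CPM in shTRIM22 and 489, 483 and 536 CPM in shControl libraries (log2 fold change -0.49 ± 0.04, adjusted p = 3.95e-13).

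PCNA and GINS2 are shown because they moved in opposite directions and both promoters held an E2F site, searched as TTTCCCGC or TTTGGCGC on both strands (capitals, same source and window).
PCNA promoter, chr20:5126573-5126872, minus strand: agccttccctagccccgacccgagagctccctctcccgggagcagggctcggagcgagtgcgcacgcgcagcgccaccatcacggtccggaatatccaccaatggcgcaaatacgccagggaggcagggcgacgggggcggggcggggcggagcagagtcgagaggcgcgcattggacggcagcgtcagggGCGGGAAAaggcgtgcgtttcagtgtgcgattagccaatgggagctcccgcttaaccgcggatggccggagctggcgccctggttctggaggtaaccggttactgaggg
GINS2 promoter, chr16:85688905-85689204, minus strand: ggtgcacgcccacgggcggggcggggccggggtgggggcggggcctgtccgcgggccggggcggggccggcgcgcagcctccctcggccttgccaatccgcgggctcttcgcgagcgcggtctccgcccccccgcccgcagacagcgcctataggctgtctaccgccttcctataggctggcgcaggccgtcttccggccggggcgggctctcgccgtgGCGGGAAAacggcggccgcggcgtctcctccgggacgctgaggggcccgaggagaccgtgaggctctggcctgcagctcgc
Such a site was found in 15 of 27 replication genes with a promoter in the table and in 2.31% of all 27305 promoters. Of these 15, 6 rose, 3 fell and 6 were not called, where 24.8% of all genes tested rose and 24.7% fell.

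Mitotic genes showed few calls. Of 29 tested, 1 rose and 5 fell, 4 of them at least 1.5-fold, with a median of -0.14. MKI67, the proliferation antigen, held 43.5, 38.98 and 49.8 CPM in irradiated shTRIM22 libraries, against 50.6, 51.3 and 36.4 CPM in irradiated shControl libraries, and these overlapped (log2 fold change -0.06 ± 0.17, adjusted p = 0.804). A call with the same sign arose for it in 1 of 13 alternative settings. KIF23, a motor of cytokinesis, held 22.3, 20.5 and 22.6 CPM in shTRIM22 and 37.997, 41.7 and 29.03 CPM in shControl libraries (log2 fold change -0.73 ± 0.10, adjusted p = 1.42e-06). CENPF (-0.61 ± 0.15), a kinetochore protein, and NUSAP1 (-0.82 ± 0.26), a spindle protein, fell as well, and the mitotic kinase AURKA rose (0.35 ± 0.11). These 3 calls did not hold in all 13 alternative settings. AURKA lost its call without shControl irradiated replicate 3 (adjusted p = 0.131) and with all 12 libraries in 1 fit (adjusted p = 0.0702), NUSAP1 without shControl irradiated replicate 2 (adjusted p = 0.0556) or shTRIM22 irradiated replicate 3 (adjusted p = 0.0702), and CENPF without shTRIM22 irradiated replicate 1 (adjusted p = 0.0599). In shControl replicate 3 the levels of MKI67, KIF23, CENPF, NUSAP1 and AURKA were the lowest of its group.

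DNA repair genes gave 9 rises and 3 falls of 27 tested, with 0 rises and 0 falls of at least 1.5-fold, and a median of 0.14. PRKDC, the catalytic kinase of end joining, held 657, 615 and 653 CPM in irradiated shTRIM22 libraries, against 505, 493 and 476 CPM in irradiated shControl libraries (log2 fold change 0.38 ± 0.04, adjusted p = 9.28e-12). TP53BP1, which marks breaks and overlaps TUBGCP4, rose by 0.26 ± 0.06. ATR, a kinase of replication stress, fell (-0.30 ± 0.07). Nuclear lamina and chromatin genes gave 5 rises and 2 falls of 13. LMNB1, a lamin whose loss marks senescent cells, held 14.9, 14.2 and 16.99 CPM in shTRIM22 and 10.05, 11.5 and 12.002 CPM in shControl libraries (log2 fold change 0.45 ± 0.12, adjusted p = 0.000979), a call lost with all 12 libraries in 1 fit (adjusted p = 0.0791). LMNB2, which overlaps TIMM13, changed by 0.52 ± 0.06, UHRF1, which maintains DNA methylation, by 0.69 ± 0.11, DNMT1, the methyltransferase it guides, by 0.32 ± 0.06 and the histone variant gene H2AFZ by 0.37 ± 0.05, all upward and all without overlap.

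Targets of the oxidative stress factor NRF2, which is constitutively active in A549 cells, were split. Of 25 tested, 15 fell and 9 rose, 9 and 2 of them at least 1.5-fold, with a median of -0.22. AKR1B10, an aldo-keto reductase, held 262, 264 and 228 CPM in irradiated shTRIM22 libraries, against 734, 706 and 679 CPM in irradiated shControl libraries. SLC7A11, the cystine importer that feeds glutathione synthesis, held 274, 254 and 281 CPM in shTRIM22 and 588, 586 and 562 CPM in shControl libraries. ABCC3, an efflux transporter of conjugates, held 570.1, 584 and 585 CPM in shTRIM22 and 1366, 1415 and 1448 CPM in shControl libraries. Every shTRIM22 library was lower for these 3 genes, with log2 fold changes of -1.49 ± 0.05 for AKR1B10 (adjusted p = 1.73e-27), -1.10 ± 0.04 for SLC7A11 (adjusted p = 2.43e-29) and -1.28 ± 0.04 for ABCC3 (adjusted p = 1.25e-33). AKR1C2 fell as well (-1.34 ± 0.04), though its reads may be split among near-identical AKR1C genes. HMOX1, the heme oxygenase picked after its values were seen, rose instead, at 282, 277 and 276 CPM in shTRIM22 and 166, 171 and 147 CPM in shControl libraries (log2 fold change 0.79 ± 0.05, adjusted p = 1.52e-20).

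Detoxifying enzymes gave 11 falls and 5 rises of 21, with a median of -0.37. CYP1B1, a cytochrome induced by the aryl hydrocarbon receptor, held 863, 806 and 853 CPM in irradiated shTRIM22 libraries, against 315, 317 and 317 CPM in irradiated shControl libraries (log2 fold change 1.41 ± 0.04, adjusted p = 9.61e-35). CYP24A1, which degrades active vitamin D, held 1775, 1744 and 1551 CPM in shTRIM22 and 3003, 3034 and 3181 CPM in shControl libraries (log2 fold change -0.86 ± 0.04, adjusted p = 7.14e-23). These enzymes thus moved in opposite directions, both without overlap. NNMT (-0.84 ± 0.05), a nicotinamide methyltransferase, and the aldehyde dehydrogenase ALDH3B1 (-0.55 ± 0.04) fell.

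Of 24 hypoxia and glycolysis genes, 15 fell and 5 rose, with a median of -0.25. The glucose transporters went against that direction. SLC2A3 (chromosome 12, 7919230 to 7936275, minus strand), the high-affinity transporter GLUT3, held 454, 446 and 516 CPM in irradiated shTRIM22 libraries, against 121, 120.1 and 109.6 CPM in irradiated shControl libraries (log2 fold change 2.01 ± 0.05, adjusted p = 3.62e-28). SLC2A1, the ubiquitous transporter GLUT1, held 646, 667 and 696 CPM in shTRIM22 and 371, 378 and 394 CPM in shControl libraries (log2 fold change 0.81 ± 0.04, adjusted p = 3.79e-24). All shTRIM22 libraries were above all shControl libraries. PFKFB3, an activator of glycolysis, fell (-0.50 ± 0.04). CA9, a carbonic anhydrase induced by hypoxia, was listed at 0, 0.0602 and 0.0643 CPM in shTRIM22 libraries and 4.32, 3.25 and 5.97 CPM in shControl libraries, too close to 0 in shTRIM22 cells for a fold.

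Sterol synthesis and uptake genes were mostly higher, with 18 rises and 2 falls of 24 tested and a median of 0.27. SQLE, which oxidizes squalene, held 235, 231 and 215 CPM in irradiated shTRIM22 libraries, against 131, 134 and 134 CPM in irradiated shControl libraries (log2 fold change 0.77 ± 0.04, adjusted p = 2.08e-21). DHCR7, which acts late in cholesterol synthesis, held 325, 329 and 313 CPM in shTRIM22 and 222, 227 and 205 CPM in shControl libraries (log2 fold change 0.56 ± 0.04, adjusted p = 1.53e-16). Both genes were higher in every shTRIM22 library. Targets of ATF4 and of the unfolded protein response gave 6 rises and 9 falls of 23. PHGDH, the entry enzyme of serine synthesis, held 80.4, 78.9 and 86.2 CPM in shTRIM22 and 43.5, 44.7 and 45.9 CPM in shControl libraries (log2 fold change 0.87 ± 0.06, adjusted p = 8.12e-19), while SHMT2, the mitochondrial enzyme that uses serine and was picked after its values were seen, held 22.6, 23.7 and 34.5 CPM in shTRIM22 and 124, 124 and 134 CPM in shControl libraries (log2 fold change -2.24 ± 0.16, adjusted p = 0.000171). HSP90B1 (-0.51 ± 0.04), a chaperone of the endoplasmic reticulum, and XBP1 (-0.41 ± 0.04), a factor of its stress response, fell. Heat shock genes gave 7 rises and 3 falls of 16, with HSP90AA1 (0.56 ± 0.04), HSP90AB1 (0.42 ± 0.04) and HSPA8 (0.38 ± 0.04) higher and HSPB1 (-0.24 ± 0.05) lower.

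TGF-beta and activin genes moved both ways, 10 up and 11 down of 24. TGFBR1, the kinase receptor of TGF-beta, held 41.2, 38.4 and 42.7 CPM in irradiated shTRIM22 libraries, against 116, 117 and 113 CPM in irradiated shControl libraries (log2 fold change -1.50 ± 0.06, adjusted p = 5.33e-30). The ligand TGFB1, which overlaps HNRNPUL1, held 86.6, 91.6 and 84.1 CPM in shTRIM22 and 194, 198 and 208 CPM in shControl libraries (log2 fold change -1.20 ± 0.05, adjusted p = 7.48e-29), and the matrix protein TGFBI, a target of the pathway, held 1393, 1402 and 1372 CPM in shTRIM22 and 2587, 2639 and 2665 CPM in shControl libraries (log2 fold change -0.92 ± 0.04, adjusted p = 1.96e-27). Ligand, receptor and target were thus lower in every shTRIM22 library, while FSTL3, which binds and blocks activin, rose (0.68 ± 0.04). Targets of YAP and TEAD gave 9 rises and 11 falls of 20. AXL, a receptor tyrosine kinase, held 26.1, 30.3 and 29.2 CPM in shTRIM22 and 80.2, 78.9 and 76.7 CPM in shControl libraries (log2 fold change -1.46 ± 0.07, adjusted p = 1.68e-26). CTGF, a matricellular protein, fell (-0.84 ± 0.06), as did ASAP1 (-0.63 ± 0.05), and MYOF, a membrane repair protein, rose (0.47 ± 0.04).

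Among BCL2 family members and caspases 12 of 26 rose and 5 fell, 8 of the rises being at least 1.5-fold against 7.68% of all genes. CASP9, the initiator caspase of the mitochondrial pathway, held 44.1, 46.99 and 45.6 CPM in irradiated shTRIM22 libraries, against 23.4, 25.8 and 24.5 CPM in irradiated shControl libraries (log2 fold change 0.89 ± 0.07, adjusted p = 3.43e-15). CASP2, another initiator caspase, held 56.9, 54.2 and 54.1 CPM in shTRIM22 and 34.2, 30.9 and 29.9 CPM in shControl libraries (log2 fold change 0.80 ± 0.07, adjusted p = 8.99e-15). These caspases were higher in all shTRIM22 libraries, beside the lower MCL1 given above. Autophagy and lysosome genes gave 15 rises and 8 falls of 27, with a median of 0.20. GABARAPL1, which coats autophagosomes, held 181, 192 and 200.4 CPM in shTRIM22 and 115, 112 and 113 CPM in shControl libraries (log2 fold change 0.76 ± 0.05, adjusted p = 1.44e-20). The lysosomal genes LAMP1 (0.51 ± 0.04) and CTSL (0.55 ± 0.04) rose.

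Ribosomal protein genes gave 6 rises and 9 falls of 28, 0 and 0 at 1.5-fold, with a median of -0.01. The lowest p-values were those of RPL3 (-0.41 ± 0.04), RPL13A (-0.31 ± 0.04), RPL15 (-0.31 ± 0.04) and RPL19 (-0.27 ± 0.04), all lower, where RPL13A (adjusted p = 0.236) and RPL15 (adjusted p = 0.0668) lost their call with all 12 libraries in 1 fit, and reads of this family may be shared with processed pseudogenes. Of 13 mitochondrially encoded genes 4 rose and 2 fell, none of them 1.5-fold, with a median of 0.02. MT-ND6, a subunit of respiratory complex I, rose (0.52 ± 0.05), as did MT-ND5 (0.36 ± 0.04), and MT-CYB fell (-0.23 ± 0.04). All 3 calls were lost when sham libraries entered the fit, with adjusted p of 0.434 for MT-ND6, 0.617 for MT-ND5 and 0.823 for MT-CYB over all 12 libraries and 0.0620 for MT-ND6, 0.136 for MT-ND5 and 0.314 for MT-CYB without shTRIM22 sham replicate 3.

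The knockdown effect after irradiation was set beside that in sham cells, whose size rests on 6 other libraries of the same populations. Calls in sham cells came from a fit of all 12 libraries, with a common biological coefficient of variation of 9.70% against 4.88%. The calls of these comparisons were thus not made on separate libraries or at a like spread. Across 16084 genes the log2 fold changes gave r = 0.79 and rho = 0.75 (0.80 and 0.77 without shTRIM22 sham replicate 3), a description across genes that are not independent. Of 2889 genes changed at least 1.5-fold after irradiation, 2799 (96.9%) had the same sign in sham cells. The share with the same sign over all 16084 genes was not counted. Of these 2889, 2314 were called in sham cells, 2312 of them in the same direction and 2 in the opposite one. Over all 17094 genes, 47.5% were called in sham cells. Without shTRIM22 sham replicate 3, 2337 were called, 2334 in the same direction and 3 in the opposite one, beside 49.7% of all 17500 genes. TRIM22 was at 0.326, 0.304 and 0.293 CPM in sham shTRIM22 libraries and 2.83, 1.76 and 2.25 CPM in sham shControl libraries, all lower than in the irradiated libraries of their own population.

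A difference between the knockdown effects with and without irradiation was called for 276 of 17094 genes (1.61%), 89 higher (0.521%) and 187 lower (1.09%), and for 1185 of 17500 genes (6.77%) without shTRIM22 sham replicate 3. Among genes above 5 CPM the effect of SAA1 was the most shifted downward (-2.20 ± 0.25, adjusted p = 0.000181, and -2.08 with adjusted p = 1.88e-08 without shTRIM22 sham replicate 3). In sham cells it was at 16.7, 16.9 and 21.5 CPM in shTRIM22 and 2.26, 1.69 and 1.74 CPM in shControl libraries. PLEKHG6 was the most shifted upward (1.68 ± 0.25, adjusted p = 0.00289, and 1.47 with adjusted p = 1.1e-06 without that library). It held 9.29, 10.7 and 12.2 CPM in irradiated shTRIM22 libraries, against 9.91, 8.07 and 9.58 CPM in irradiated shControl libraries, which overlapped, and 6.31, 5.47 and 3.46 CPM in sham shTRIM22 against 15.1, 14.5 and 12.4 CPM in sham shControl libraries. The count of 276 was 915 without shTRIM22 sham replicate 2, and between 111 and 138 when any single irradiated library or any single shControl sham library was left out.

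**Figure D5:**
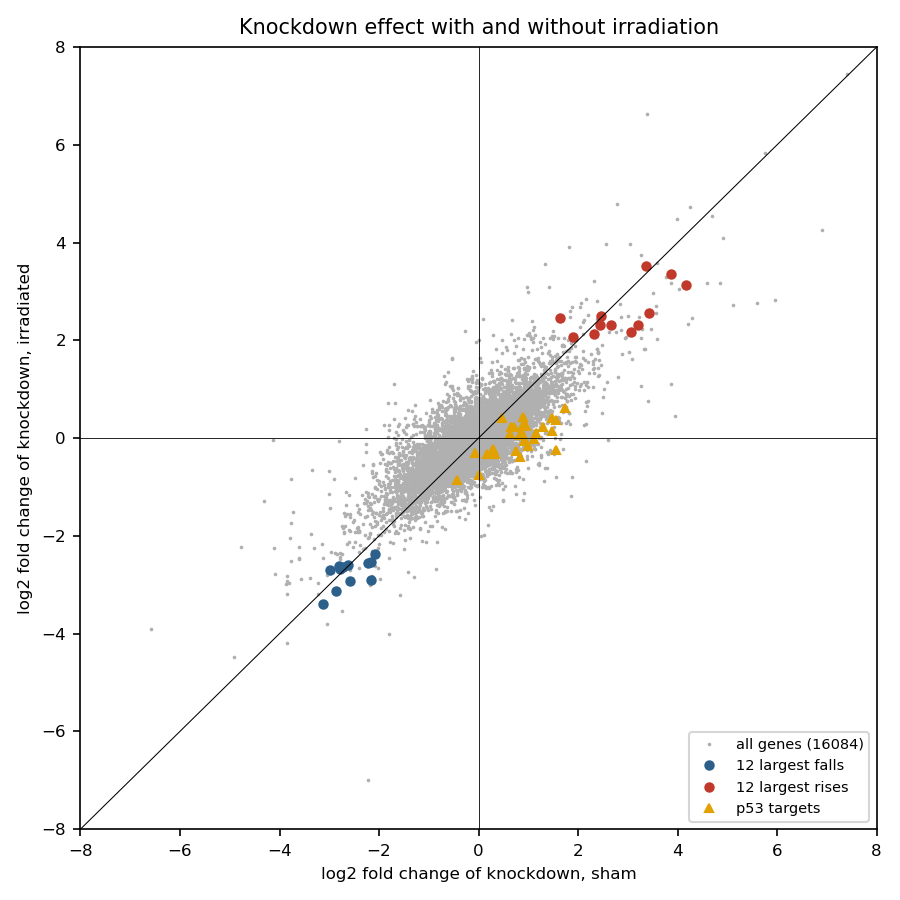
Log2 fold change of shTRIM22 over shControl after irradiation (vertical axis) against that in sham cells (horizontal axis) for 16084 genes, with the line of equal effects. The 12 genes named above for the largest falls (blue) and the 12 for the largest rises (red) lie on the same side of 0 in both. The p53 targets (yellow triangles) all lie below the line.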

How the data were processed

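Poly(A) RNA of A549 cells was sequenced in 12 libraries, 4 groups of 3, and 6 of them, taken on day 3 after irradiation, form the comparison. The authors deposited raw read counts per gene for 58735 genes, with no normalization. The submitters' processing notes name hg38 and DESeq2 1.20.0. Not given in the sources used here are the aligner, the counting tool and the strandedness, and without strand a read cannot be assigned between genes that overlap in opposite orientation. All 58735 identifiers and coordinates equal those of GENCODE release 29.

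Tests on the deposited counts used edgeR 4.0.16 (R 4.3.3). The 6 irradiated libraries were fitted alone, since a sham library that stands apart would otherwise set their spread. Genes were kept by filterByExpr with a minimum count of 10, libraries were scaled by TMM, and each group had 1 mean in a robust quasi-likelihood fit with F-test. P-values were Benjamini-Hochberg adjusted over 16084 genes and called below 0.05. The difference between knockdown effects, and the effect in sham cells, were tested in a fit of all 12 libraries. Fold changes are log2, shTRIM22 over shControl, ± SE. Levels are CPM with TMM factors of all 12 libraries. Alternatives were DESeq2 1.42.0, its size factors, no filter, a replicate block, other sets of libraries, no mitochondrial genes, and leaving out each library.

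The members of the comparison, the 38 gene lists and the rule for named genes were chosen with earlier results of these data known. Lists are described by counts and medians, without a test. Named genes are TRIM22, the 12 largest rises and falls among called protein-coding genes whose mean reached 5 CPM and whose groups did not overlap, up to 4 called members of each list with the smallest p, 6 genes in each direction for the difference, and 15 genes always named, some of which are not reported here. EGR1, CCL20, HMOX1, SHMT2, KRT8, KRT19, EPCAM and the surfactant and airway genes too low to be called were added after their values were seen. No deposited per-sample column was left unused (0). Chi-square per degree of freedom between replicates was at least 2.49, above sampling noise, so each library was counted.

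The steps were tested on simulated data with 200 changed genes. For knockdown after irradiation, 15811 genes were tested and the recovered share was 70% at 1.5-fold, 74% at 2-fold, 88% at 3-fold and 98% at 4-fold, with 8 false calls among 173. For the difference, 16718 genes were tested and 24%, 56%, 82% and 84% of the same folds were recovered, with 9 false calls among 132. Only 200 genes were changed there, whereas 49.5% of genes were called for knockdown after irradiation. No simulated library was made to stand apart as shTRIM22 sham replicate 3 did. These shares and false calls therefore need not hold for the data.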

Additional observations from a re-analysis of the deposited data

Results flagged for a closer look

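For 29 of 168 named genes the knockdown effect after irradiation differed from that in sham cells by the test of the difference itself (edgeR, adjusted p below 0.05, all 12 libraries), 19 with a lower and 10 with a higher effect after irradiation. Without shTRIM22 sham replicate 3, 28 of the 29 were called in the same direction, the exception being APOH (adjusted p = 0.051). Of the 12 genes named by the size of their difference, SAA1, GADD45A, ACTA2, PLEKHG6 and WNT3 kept their call in all 16 alternative settings. MAP7D2 and POU6F1 each lost it in 10, the replicate block among them (adjusted p = 0.0527 for MAP7D2 and 0.0548 for POU6F1), DOCK10 in 9, FLG and ADGRE1 in 6 each, MSLN in 3 and MAP2 in 1, with adjusted p up to 0.124 for POU6F1 and 0.124 for MAP7D2. Apart from those replicate blocks, these losses came from leaving out 1 library, and the other 17 genes were run without shTRIM22 sham replicate 3 only. Values in brackets are the difference of log2 fold changes, irradiated minus sham, from all 12 libraries. Without shTRIM22 sham replicate 3 some were smaller in size, such as -0.79 for PHLDA3, -0.85 for COL5A1, -0.45 for KRT18 and 2.14 for APOH. Others were larger in size, such as -0.83 for DDB2 and -0.71 for C5.

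Lower effects were measured for genes that p53 induces, GADD45A (-1.34), MDM2 (-1.22), PHLDA3 (-1.06), CDKN1A (-1.05), DDB2 (-0.75) and PCNA (-0.57). Other genes with lower effects were SAA1 (-2.20), FLG (-1.66), MSLN (-1.47), MAP7D2 (-1.31), ACTA2 (-1.26), COL5A1 (-1.10), MFAP5 (-0.88), TIMP2 (-0.64), C5 (-0.59), KRT18 (-0.59), SERPINE2 (-0.50), HSP90AA1 (-0.46) and JUN (-0.44). Of these SAA1 is an acute-phase apolipoprotein, FLG and KRT18 are epithelial structural proteins and ACTA2, COL5A1 and MFAP5 belong to the contractile or matrix genes, where ACTA2 overlaps FAS on the opposite strand. A lower effect was not always a smaller one. MFAP5, TIMP2 and KRT18 rose in shTRIM22 cells in both conditions, and less so after irradiation. C5 and JUN fell in both, and further after irradiation. COL5A1 and SERPINE2 were called lower only after irradiation.

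Higher effects were measured for ABCC3 (0.33), TGFBI (0.48), FOS (0.55), POU6F1 (0.90), DOCK10 (0.91), WNT3 (0.95), MAP2 (1.04), ADGRE1 (1.14), PLEKHG6 (1.68) and APOH (2.66). Of these FOS, TGFBI, ABCC3, MAP2 and APOH were lower in shTRIM22 cells in both conditions, and less so after irradiation. APOH was close to 0 in shTRIM22 libraries, so the size of its difference is uncertain.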

How the results depend on the processing

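The count of genes called for knockdown after irradiation was 7967. It was 7213 to 7477 with 1 irradiated library left out, 7825 with a replicate block (the labels' numbers did not pair the samples, same-number correlations of deviations from group means being 0.0146, -0.0172 and -0.0221) and 6092 with all 12 libraries in 1 fit, and between 6092 and 7964 over the 13 alternatives. Counts at 1.5-fold were 2765 to 2857 and at 2-fold 1219 to 1272 with 1 library left out. TRIM22 stayed between -3.31 and -2.92. Of 168 named genes called, 151 kept call and direction in every alternative, 17 lost the call in at least 1 (CDKN1A in 6) and 0 reversed. MKI67, not called in the main fit, was called with the same sign in 1 of the 13 alternatives. It ran from -0.22 to 0.02 with 1 library left out and changed sign to 0.00 (0.0046), 0.02 (0.0248) and 0.02 (0.0248) without shControl irradiated replicate 1, shControl irradiated replicate 2 and shTRIM22 irradiated replicate 2. Of 493 list medians, 18 moved by more than their SD between libraries, and leaving out mitochondrial genes gave no value for the mitochondrial list.

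The difference between knockdown effects depended most on the settings. Its count of 276 was 229 with a replicate block, 574 with DESeq2, 754 with no filter on low counts and 111 to 1185 with 1 library left out. The highest counts came without shTRIM22 sham replicate 3 (1185) and replicate 2 (915), and every single irradiated or shControl sham library left out brought it below 150. Of 12 genes named for the difference, 5 kept their call in all 16 alternatives. The p53 targets with a lower effect after irradiation numbered 17 to 27 with 1 library left out. The cause was not tested. Genes of a few CPM and genes sharing reads with copies or overlapping genes are limited by depth and by counting.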
